A study of Mus musculus with 4 samples.

Results

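The reticulon genes Rtn1, Rtn2, Rtn3 and Rtn4 were described here at the level of genes and of transcript isoforms. They were taken by symbol, as 4 of the 27998 genes of the Illumina matrices and as 15 of the 31986 transcript rows of the Nanopore tables. All 4 genes and all 15 rows held UMIs in the kept cells. The samples were brain cells (cortex, hippocampus and subventricular zone) from a C57BL/6 mouse at E18, with no treatment or genetic change named. A single Chromium emulsion was divided before library preparation into aliquots named by 190 and 951 cells, and the cDNA of either aliquot was read both by Illumina (short reads) and by Nanopore (full-length reads). Of the 1141 cell barcodes, the 1121 with at least 1400 Illumina genes were kept, 186 and 935 per aliquot, with 1809081 and 8295650 Illumina UMIs and with 993220 and 4889148 Nanopore UMIs assigned to an isoform. The aliquots are technical samples of 1 suspension from 1 animal, so every p-value below measures the spread between them and not between animals.

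Reticulons are membrane proteins of the tubular endoplasmic reticulum. Their conserved C-terminal part, the reticulon homology domain, lies in the membrane in hairpins and helps to bend it into tubules, while the N-terminal part differs between genes and between isoforms of 1 gene. Rtn4 is also called Nogo: its longest isoform, Nogo-A, carries an N-terminal stretch that inhibits neurite growth, and a short loop in the conserved part, present in every isoform, is a ligand of the Nogo receptor Rtn4r. Rtn1 is a classical marker of neurons and neuroendocrine cells, and Rtn3 has been studied as a binder of the beta-secretase Bace1 and as a receptor for the breakdown of endoplasmic reticulum tubules. Mutations of human RTN2 cause a form of hereditary spastic paraplegia.

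The exon structure of the 4 genes was read from the Gencode vM21 annotation (GRCm38). Each gene had a run of 5 consecutive exons of 208, 139, 70, 47 and 59 bases ahead of its last exon, and among 55450 annotated genes these 4 were the genes with that run. Over the 523 bases of the run, the most alike pair was Rtn1 and Rtn4, with 65.2% identical bases, and the least alike was Rtn2 and Rtn4, with 51.8%. The first exon of the run is shown because the isoforms described below differ in what is joined ahead of it. It lies at chr12:72223332-72223539 (minus strand) in Rtn1, chr7:19293076-19293283 (plus strand) in Rtn2, chr19:7434931-7435138 (minus strand) in Rtn3 and chr11:29733633-29733840 (plus strand) in Rtn4. Capitals mark the 79 of 208 bases that are the same in all 4 genes, and the sequences run 5′ to 3′ on the strand of the gene.
Rtn1: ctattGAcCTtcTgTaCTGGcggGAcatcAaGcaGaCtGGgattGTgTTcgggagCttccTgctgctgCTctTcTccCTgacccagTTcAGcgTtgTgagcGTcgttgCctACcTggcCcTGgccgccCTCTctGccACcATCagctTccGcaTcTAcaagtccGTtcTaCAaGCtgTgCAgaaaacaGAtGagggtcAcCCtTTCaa
Rtn2: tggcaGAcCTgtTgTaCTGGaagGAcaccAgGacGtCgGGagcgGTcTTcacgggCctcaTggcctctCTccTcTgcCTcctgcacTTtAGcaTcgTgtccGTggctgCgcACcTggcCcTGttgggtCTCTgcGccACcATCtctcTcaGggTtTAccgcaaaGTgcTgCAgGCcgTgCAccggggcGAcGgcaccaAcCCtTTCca
Rtn3: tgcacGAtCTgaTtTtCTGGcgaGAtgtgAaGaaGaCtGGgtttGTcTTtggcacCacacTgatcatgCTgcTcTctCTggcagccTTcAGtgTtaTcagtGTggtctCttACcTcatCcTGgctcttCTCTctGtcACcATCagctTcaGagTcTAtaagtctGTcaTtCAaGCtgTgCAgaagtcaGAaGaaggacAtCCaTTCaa
Rtn4: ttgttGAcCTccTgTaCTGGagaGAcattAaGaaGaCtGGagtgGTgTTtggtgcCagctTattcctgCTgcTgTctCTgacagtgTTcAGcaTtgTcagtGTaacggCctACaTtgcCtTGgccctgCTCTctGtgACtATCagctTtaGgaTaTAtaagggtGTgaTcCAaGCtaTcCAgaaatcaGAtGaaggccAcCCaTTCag

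Upstream of this run, Rtn3 and Rtn4 each have a coding exon of 57 bases that isoforms include or skip, at chr19:7467811-7467867 and chr11:29705535-29705591. These exons share 25 of their 57 bases, in capitals.
Rtn4: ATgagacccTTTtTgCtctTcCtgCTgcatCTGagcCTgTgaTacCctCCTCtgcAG
Rtn3: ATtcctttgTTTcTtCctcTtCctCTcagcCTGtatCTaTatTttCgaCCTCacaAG
Rtn4 also has a coding exon of 2361 bases (chr11:29706410-29708770, 787 codons), which makes Nogo-A, and Rtn3 has one of 2124 bases (chr19:7456300-7458423, 708 codons). Rtn4-205 (1162 codons, Nogo-A) includes both the 57-base and the 2361-base exon, Rtn4-204 (375 codons) includes the 57-base exon alone, and Rtn4-202 (356 codons) skips both, the last 2 being of the Nogo-B type. The junctions by which a Nanopore read tells these isoforms apart are shown with 20 bases on each side, the downstream exon in capitals.
Rtn4-205, into the 2361-base exon: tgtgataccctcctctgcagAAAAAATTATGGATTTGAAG
Rtn4-205, out of the 2361-base exon: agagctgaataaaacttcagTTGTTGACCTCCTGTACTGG
Rtn4-204: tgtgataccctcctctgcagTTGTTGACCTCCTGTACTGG
Rtn4-202: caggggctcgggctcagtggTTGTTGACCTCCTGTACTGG
Rtn1 differs in where transcription starts. Rtn1-202 (780 codons, the Rtn1-A type) has 3 long exons ahead of the run, of which the first starts at base 72409054 of chromosome 12, while Rtn1-201 (208 codons, the Rtn1-C type) starts at base 72236724 with a first exon of 196 bases. Their junctions into the run are as follows.
Rtn1-202: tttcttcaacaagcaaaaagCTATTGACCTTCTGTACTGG
Rtn1-201: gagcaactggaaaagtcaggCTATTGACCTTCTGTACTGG

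**Figure D1:**
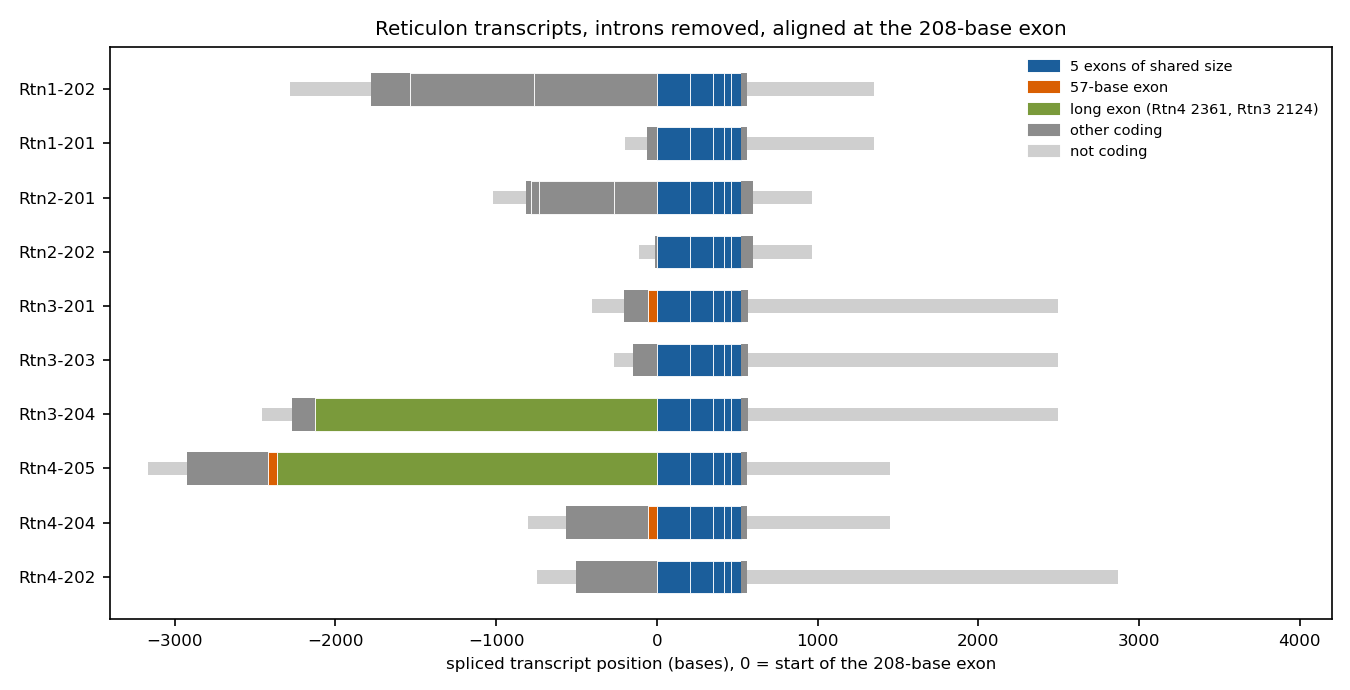
Spliced reticulon transcripts of Gencode vM21 drawn to scale, with position in bases from the start of the 208-base exon on the x axis and 1 transcript per row. Tall boxes are coding and thin grey boxes are not; the 5 blue exons have the same sizes in all 4 genes, and the transcripts differ upstream of them.

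The Illumina reads come from the 3′ end of the transcripts and were counted per gene, without regard to isoform. The annotated 3′ ends are not all the same, since Rtn4-202 ends at base 29744331 of chromosome 11 and Rtn4-205 and Rtn4-204 at base 29742916. Rtn1 had 3183 and 17148 Illumina UMIs in the 190 and 951 cell aliquots, or 1759 and 2067 UMIs per 1000000 Illumina UMIs (CPM). Rtn2 had 147 and 453 UMIs, which is 81.3 CPM (95% Poisson interval 68.7 to 95.5) and 54.6 CPM (49.7 to 59.9), so the intervals of the aliquots did not overlap for this gene. Rtn3 had 620 and 3001 UMIs (343 and 362 CPM), and Rtn4 had 691 and 3268 UMIs (382 and 394 CPM). All intervals here cover counting error only.

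Cells were placed in 8 classes by clustering the Illumina counts without the 4 genes and naming the 10 clusters from marker lists. The named clusters had from 7 of 10 to all of their listed markers raised. The classes were radial glia-like (13 and 56 cells in the 190 and 951 cell aliquots), a cycling kind of these (24 and 94), intermediate progenitor-like (17 and 71), immature glutamatergic-like (37 and 195), mature glutamatergic-like (43 and 237), GABAergic-like of an immature (31 and 141) and of a mature kind (17 and 128) and Cajal-Retzius-like (4 and 13). Immune genes (Ccl4, Ccl3, C1qc, Tyrobp and C1qb) led the intermediate progenitor-like cluster, which held 3 cells with at least 80 microglia marker UMIs each, so this class was described and not tested. In all, 15 kept cells had at least 10 UMIs of markers of microglia, endothelium, mural cells, the oligodendrocyte lineage or choroid plexus, and 24 kept cells had a barcode found in both aliquots. UMIs of the hemoglobin genes, which these classes should lack, occurred in 1085 of the 1121 cells, so free RNA was present.

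Rtn1 was low in progenitors and high in neurons of both lineages. Its CPM in the 190 and 951 cell aliquots was 799 and 633 in radial glia-like cells, 628 and 701 in the cycling kind, and 894 and 965 in intermediate progenitor-like cells. It was 1905 and 2062 in immature glutamatergic-like, 1696 and 2083 in immature GABAergic-like, 2747 and 2975 in mature glutamatergic-like, 2509 and 3218 in mature GABAergic-like and 2081 and 2832 in Cajal-Retzius-like cells. Every neuronal class lay above every progenitor class in both aliquots, and the mean of the highest class was 4.31 times that of the lowest. Classes are said to overlap, here and for the other genes below, where the ranges of their 2 aliquot values do. The highest classes (mature GABAergic-like, mature glutamatergic-like and Cajal-Retzius-like) overlapped in turn, as did the immature neuronal classes with each other and the 2 radial glia-like classes with each other.

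Rtn4 had another order, with the glutamatergic-like classes on top. Immature glutamatergic-like cells had 535 and 514 CPM and mature glutamatergic-like cells 490 and 509 CPM, followed by immature GABAergic-like cells with 433 and 398 CPM. Mature GABAergic-like cells had 311 and 327 CPM and Cajal-Retzius-like cells 284 and 375 CPM, which overlapped. The progenitors were lowest, with 256 and 233 CPM in intermediate progenitor-like cells, 232 and 227 CPM in the cycling and 166 and 178 CPM in the other radial glia-like cells, and the mean of the top class was 3.05 times that of the bottom class. The glutamatergic-like classes did not overlap, but in the 951 cell aliquot they stood only at 514 and 509 CPM.

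Rtn3 was the most even of the 4 in this respect, with a highest class mean 1.79 times the lowest. Its CPM ran from 277 and 245 in radial glia-like cells to 367 and 432 in mature glutamatergic-like and 473 and 463 in Cajal-Retzius-like cells, the latter on 20 and 58 UMIs. From the mature glutamatergic-like class down to the immature GABAergic-like class each class overlapped its neighbour. Rtn2 was sparse. It had 33.3 and 24.6 CPM in radial glia-like cells on 6 and 21 UMIs, 108 and 67.9 CPM in immature glutamatergic-like cells and 120 and 62.7 CPM in mature glutamatergic-like cells, and every class from the top to the cycling radial glia-like class overlapped its neighbour. In the glutamatergic-like classes Rtn2 was lower in the 951 cell aliquot.

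**Figure D2:**
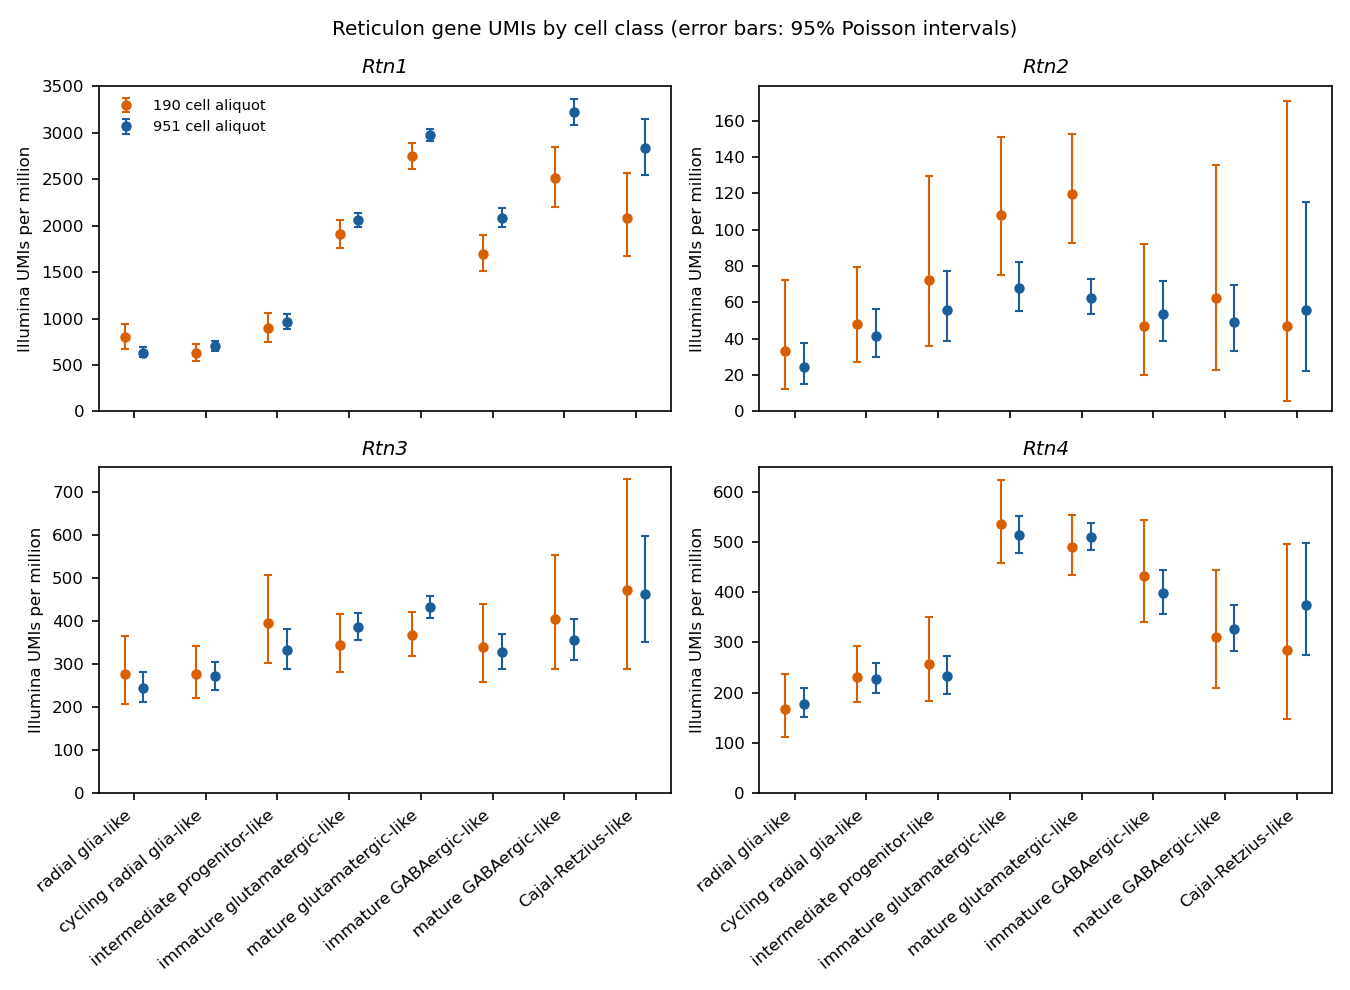
Illumina CPM (linear axes from 0) of Rtn1, Rtn2, Rtn3 and Rtn4 in 8 cell classes, with 1 point per aliquot and 95% Poisson intervals as bars. Rtn1 separates neuronal from progenitor classes, Rtn4 peaks in the glutamatergic-like classes at 490 to 535, and Rtn3 stays between 245 and 473.

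Class differences were tested on UMIs summed per class and aliquot with edgeR's quasi-likelihood test over 8589 genes, with Benjamini-Hochberg adjustment. Where an aliquot was left out of a class or isoform usage test, only its sums of the compared classes were removed. Each compared class then had a single sum, and the spread came from the other classes, which kept both aliquots. Against radial glia-like cells, all 4 genes rose in mature glutamatergic-like cells, in a comparison that called 33.7% of the genes tested, 17.3% as higher and 16.4% as lower. The log2 fold change was 2.08 ± 0.17 (SE, adjusted p = 6.9e-13) for Rtn1, 1.72 ± 0.34 (adjusted p = 9.0e-05) for Rtn2, 0.71 ± 0.19 (adjusted p = 0.0029) for Rtn3 and 1.60 ± 0.19 (adjusted p = 5.2e-09) for Rtn4. Without the 951 cell aliquot the call of Rtn3 was lost (0.44, adjusted p = 0.36).

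In mature GABAergic-like cells, again against radial glia-like cells, 31.2% of genes were called, 14.7% as higher and 16.5% as lower. Rtn1 rose there by 1.95 ± 0.17 (adjusted p = 6.8e-12) and Rtn4 by 0.82 ± 0.20 (adjusted p = 0.0012) on the log2 scale. Rtn2 had a log2 fold change of 0.91 ± 0.42 (adjusted p = 0.094) and Rtn3 of 0.47 ± 0.20 (adjusted p = 0.071). With the aliquot as a block these became 0.94 (adjusted p = 0.041) and 0.48 (adjusted p = 0.0083), so whether Rtn2 and Rtn3 were called depended on the block. Rtn3 was also called without doublets (0.55, adjusted p = 0.040). The call of Rtn4 was lost without the 951 cell aliquot (0.73, adjusted p = 0.22).

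Within the glutamatergic-like cells, mature against immature, 3.59% of genes were called (308 genes, or 954 with the aliquot as a block), 2.13% as higher and 1.46% as lower. Rtn1 rose by 0.60 ± 0.16 (adjusted p = 0.026), a call that was lost without the cells of shared barcodes (0.55, adjusted p = 0.071), with no filter on low counts (0.61, adjusted p = 0.054), with DESeq2 (0.60, adjusted p = 0.099) and without either aliquot (adjusted p = 0.42 and 0.46). With the block its adjusted p was 6.2e-08. The other genes had log2 fold changes of 0.12 ± 0.27 (Rtn2), 0.20 ± 0.18 (Rtn3) and 0.01 ± 0.18 (Rtn4), none of them called.

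Rtn4 was the gene of the family that differed between the mature neuronal classes, in a comparison that called 8.91% of genes (765, or 1276 with the block), 5.62% as lower and 3.28% as higher. It was lower in mature GABAergic-like than in mature glutamatergic-like cells, by 0.78 ± 0.19 on the log2 scale (log2 fold change -0.78, adjusted p = 0.0036). Leaving out the 190 or the 951 cell aliquot gave -0.72 (adjusted p = 0.12) and -0.89 (adjusted p = 0.11). The values of the others were -0.13 ± 0.16 for Rtn1, -0.81 ± 0.33 (adjusted p = 0.14) for Rtn2 and -0.24 ± 0.19 for Rtn3. Median cell depth also differed between these classes, 13128 and 11305 Illumina UMIs in mature glutamatergic-like against 5817 and 4858 in mature GABAergic-like cells, and the part of depth in this result was not tested.

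**Figure D3:**
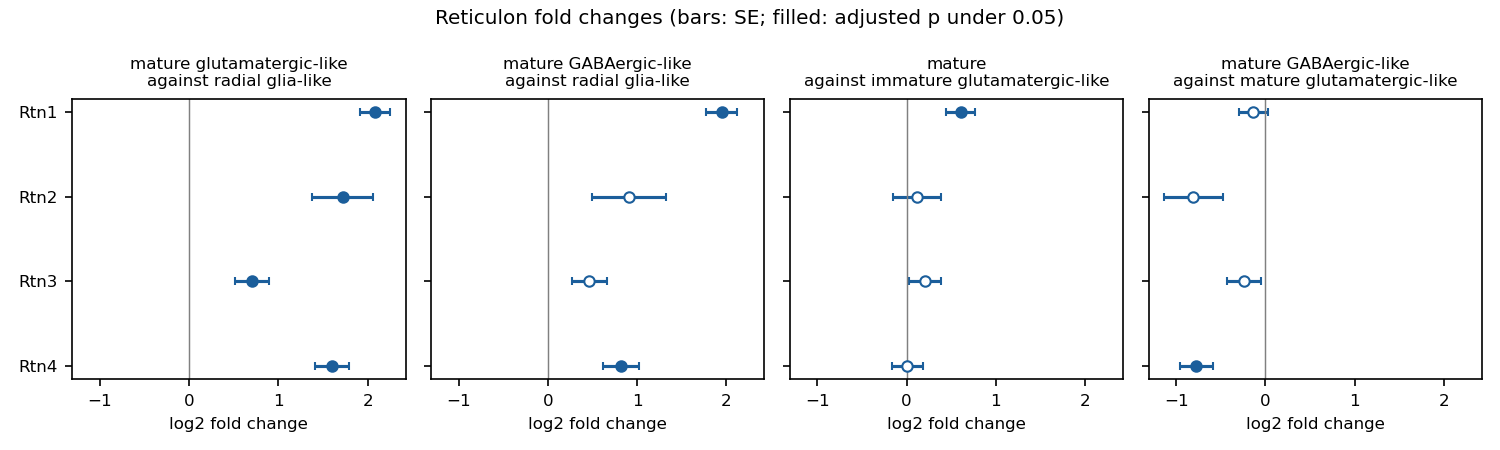
Log2 fold changes of the 4 genes (x axis) in 4 comparisons of cell classes, 1 panel each, with standard errors as bars and filled points where the adjusted p was under 0.05. All 4 points are filled for mature glutamatergic-like against radial glia-like cells, and Rtn4 is the filled point of the last panel, at -0.78.

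No class here is known to lack these genes, so the share of cells with a UMI was not read as expression. At all UMIs, 97.1% of radial glia-like and every mature glutamatergic-like cell had Rtn1, and after thinning each cell to 2000 UMIs, with no cell left out, the shares were 68.1% and 98.2%. For Rtn4 the thinned shares were 29.0% and 59.3% in the same classes, 63.8% in immature glutamatergic-like and 44.1% in mature GABAergic-like cells (unthinned 85.5%, 96.8%, 94.4% and 76.6%). Hemoglobin UMIs, from free RNA, were in 68.4% of all thinned cells. In single cells, Illumina and Nanopore UMIs of Rtn4 went together across the 1121 cells (Pearson's r = 0.94), as did those of Rtn3 (r = 0.88), a description of reads from the same cDNA.

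In the Nanopore tables a molecule has an isoform where its exon structure could be assigned to exactly 1 annotated transcript. For Rtn2, Rtn3 and Rtn4 they held 343, 2310 and 2763 UMIs, which is 57.2%, 63.8% and 69.8% of the Illumina UMIs of the gene. The median over 7557 genes with at least 100 Illumina UMIs was 54.0%. For Rtn1 they held 254 UMIs, 49 and 205 per aliquot, which is 1.25% of its 20331 Illumina UMIs, and 148 of the 7557 genes had a lower percentage. In the test between platforms, which called 50.5% of 9841 genes (20.1% as higher and 30.4% as lower in Nanopore), Rtn1 was lower by 5.29 ± 0.14 on the log2 scale (log2 fold change -5.29, adjusted p = 3.3e-05). Rtn2 was at 0.08 ± 0.25 (adjusted p = 0.81), Rtn3 at 0.27 ± 0.09 (adjusted p = 0.049, with 7 of 10 alternatives above 0.05) and Rtn4 at 0.39 ± 0.09 (adjusted p = 0.016). Both platforms read the same cDNA of either aliquot, and these p-values leave that pairing out. The aliquot as a block was fitted as an alternative.

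Rtn1-201 and Rtn1-203 have the same introns as each other and were not analysed here. Of all annotated transcripts that share their introns with another transcript of the gene, 1.49% had a Nanopore row. Of those with introns of their own, 27.8% had one. The Rtn1 counts hold Rtn1-202 (242 UMIs) and the non-coding Rtn1-205 and Rtn1-204 (10 and 2 UMIs), so composition within Rtn1 is not given as a share of the gene. Why its assigned share is low was not tested.

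Rtn1-202 was instead set against the Illumina UMIs of Rtn1 in the same cells. It came to 46 UMIs per 685 Illumina UMIs in radial glia-like cells, or 6.72% (95% Poisson interval of the Nanopore count 4.92 to 8.96), with 4.86% and 7.21% in the 190 and 951 cell aliquots. In mature glutamatergic-like cells it was 78 per 9562, or 0.816% (0.645 to 1.02), with 0.940% and 0.793%. Immature glutamatergic-like cells had 0.456% (0.266 to 0.731) and immature GABAergic-like cells 0.649% (0.346 to 1.11). Mature GABAergic-like cells had 1.58% (1.11 to 2.19), cycling radial glia-like cells 2.11% (1.27 to 3.29), intermediate progenitor-like cells 2.43% (1.44 to 3.83) and Cajal-Retzius-like cells 3.39% (1.90 to 5.58). Radial glia-like cells had the highest percentage of all 8 classes in both aliquots. In the 190 cell aliquot this rested on 7 UMIs (interval 1.95 to 10.0). That interval overlapped, among others, those of mature GABAergic-like (1.70 to 7.06) and cycling radial glia-like cells (1.44 to 7.40). In the 951 cell aliquot the interval of radial glia-like cells (5.13 to 9.85) overlapped that of Cajal-Retzius-like cells (1.95 to 6.26). For the other genes the percentages in radial glia-like and mature glutamatergic-like cells were 33.3 and 58.3 (Rtn2, on 9 Nanopore UMIs in the former), 60.6 and 63.6 (Rtn3) and 64.8 and 71.5 (Rtn4).

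Rtn1-202 was also tested on its own Nanopore counts. From radial glia-like to mature glutamatergic-like cells its log2 fold change was -0.76 ± 0.36 (adjusted p = 0.090, edgeR over 5426 transcript rows, of which 39.7% were called), where the gene rose by 2.08 in the Illumina fit. From immature to mature glutamatergic-like cells it rose by 1.37 ± 0.44 (adjusted p = 0.049), with 5.18% of rows called. The values of the 2 mature clusters lay on either side of the immature class, but the intervals of the lower cluster and that class overlapped, as given below. Its value was 0.24 ± 0.41 (adjusted p = 0.69) from radial glia-like to mature GABAergic-like cells, and 1.01 ± 0.39 (adjusted p = 0.10, with 9.75% of rows called) in mature GABAergic-like against mature glutamatergic-like cells. Per 1000000 assigned UMIs its level was 70.0 and 77.9 in radial glia-like, 29.9 and 13.5 in immature glutamatergic-like, 46.7 and 40.2 in mature glutamatergic-like, 173 and 74.1 in mature GABAergic-like and 98.7 and 194 in Cajal-Retzius-like cells. The 190 cell values rest on 2 to 14 UMIs each.

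The clusters within the mature glutamatergic-like class differed in Rtn1-202. Of the 2 clusters, the one led by Crym, Nrp2, Slit3, Opcml and Fezf2 had 71 Rtn1-202 UMIs per 6020 Illumina Rtn1 UMIs, 1.18% (0.921 to 1.49), at 1.28% and 1.16% in the aliquots. The other, with Ndrg1, Nefl, Itpr1 and Sla among its leading genes, had 7 per 3542, 0.198% (0.0795 to 0.407), at 0.212% and 0.195%. The intervals did not overlap. Per 1000000 assigned UMIs, Rtn1 had 73.9 and 72.5 Nanopore UMIs in the Fezf2 cluster and 8.08 and 7.98 in the Ndrg1 cluster, which holds 143 of the 280 mature cells, against 29.9 and 13.5 in the immature glutamatergic-like class. The value of the Ndrg1 cluster, on 1 and 6 UMIs, was thus below that of the immature class in both aliquots, but their intervals overlapped. In the 190 cell aliquot these intervals were 0.205 to 45.0 and 9.70 to 69.7. In the 951 cell aliquot they were 2.93 to 17.4 and 6.96 to 23.5. The mature class as a whole was above the immature class. Within the immature class, the cluster with Hs6st2 and Jakmip1 among its leading genes had 12.1 and 5.54, on 1 and 2 Nanopore UMIs. The cluster led by Tfap2d and Wnt7b had 47.2 and 18.9, on 4 and 10. A low Rtn1 Nanopore level was thus not particular to the Ndrg1 cluster. Illumina Rtn1 itself was 3173 and 3477 CPM in the Fezf2 cluster and 2128 and 2409 CPM in the Ndrg1 cluster. The clusters were made from the same cells, so these values are given without a test.

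**Figure D4:**
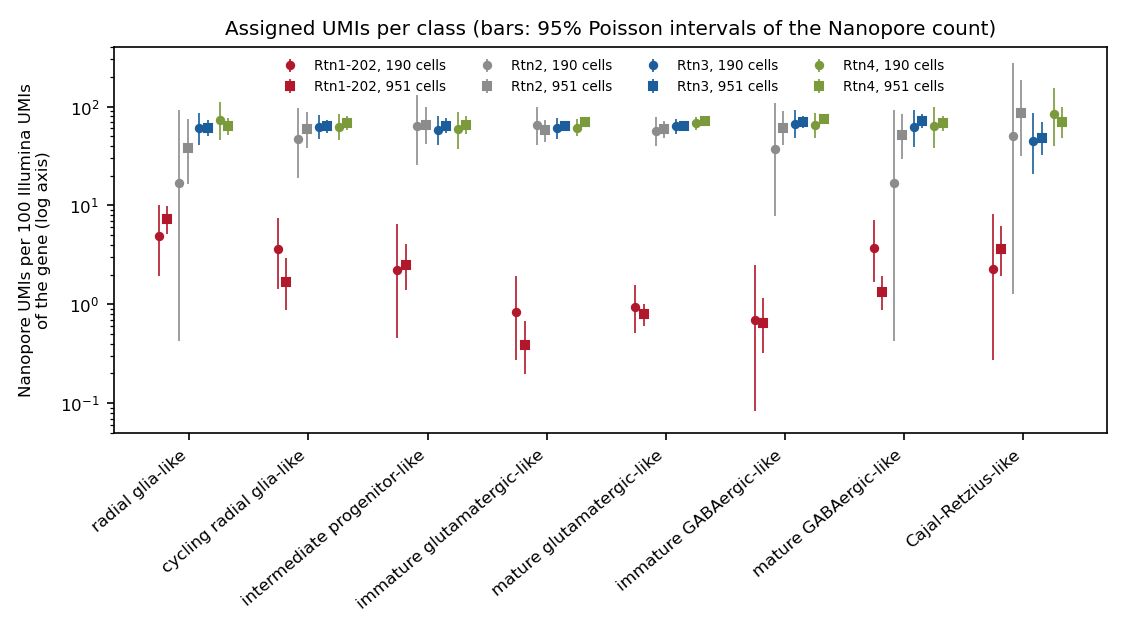
Nanopore UMIs per 100 Illumina UMIs of the same gene (log axis) for Rtn1-202, Rtn2, Rtn3 and Rtn4 in 8 cell classes, circles for the 190 and squares for the 951 cell aliquot, with 95% Poisson intervals of the Nanopore count as bars. Rtn1-202 falls from 4.86 and 7.21 in radial glia-like cells to under 1 in the immature and mature glutamatergic-like classes, while the points of Rtn3 and Rtn4 lie between 45.0 and 83.3.

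Among its assigned UMIs Rtn3 was almost wholly a single isoform. Rtn3-201 (256 codons, with the 57-base exon) took 2294 of 2310 UMIs, or 99.3% (95% exact binomial interval 98.9 to 99.6). Rtn3-203, which skips the 57-base exon, had 13 UMIs, and Rtn3-204, which carries the 2124-base exon without the 57-base exon, had 3. Rtn3-204 is annotated with 4956 bases and Rtn3-201 with 2898. The paper reports that some long transcripts were covered only in part, with a bias to the 3′ end. The part of length in these shares was not tested. Rtn3-202 and Rtn3-205 were not analysed here. Of 126 cells with at least 5 Rtn3 UMIs, 9 had more than 1 isoform. Rtn2 was likewise mostly Rtn2-201 (471 codons), with 332 of 343 UMIs or 96.8% (94.3 to 98.4), beside Rtn2-202 (204 codons, with a first exon of its own) with 7 UMIs and Rtn2-203 (retained intron) with 4. The 57-base exons of Rtn3 and Rtn4, shown above, were thus included in most of the assigned UMIs of either gene.

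Rtn4 was the gene with several isoforms. Rtn4-205 (Nogo-A) took 2343 of 2763 UMIs, or 84.8% (83.4 to 86.1), Rtn4-202 (Nogo-B) 296 or 10.7% (9.58 to 11.9), and Rtn4-204 90 or 3.26% (2.63 to 3.99). Rtn4-203, Rtn4-207 and Rtn4-210 had 18, 10 and 6 UMIs, and Rtn4-201 (199 codons, the Nogo-C type, with a first exon of its own) was not analysed here. Rtn4-205, Rtn4-202 and Rtn4-204 are annotated with 4618, 3615 and 2257 bases, and the part of length in their shares was not tested. Of 197 cells with at least 5 Rtn4 UMIs, 97 had more than 1 isoform, up to 4. Counted by exon over the 2753 UMIs that show both exons' fate, 85.8% (84.4 to 87.0) included the 2361-base exon and 89.0% (87.8 to 90.2) the 57-base exon.

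The mix of Rtn4 isoforms changed from progenitors to neurons. In radial glia-like cells, 45 of 116 UMIs had neither exon, or 38.8% (29.9 to 48.3), with 12 of 21 and 33 of 95 in the 190 and 951 cell aliquots. In mature glutamatergic-like cells 64 of 1177 had neither, or 5.44% (4.21 to 6.89), with 8 of 181 and 56 of 996. Mature GABAergic-like cells had 8 of 156, or 5.13% (2.24 to 9.85). Between these lay intermediate progenitor-like cells with 29.7% (21.6 to 38.8), cycling radial glia-like cells with 20.4% (15.1 to 26.6), immature GABAergic-like cells with 12.3% (8.76 to 16.6) and immature glutamatergic-like cells with 10.3% (8.09 to 12.9). Cajal-Retzius-like cells had 5 of 10 UMIs in the 190 cell and 1 of 33 in the 951 cell aliquot, so no common share was read for them. Without the cells holding markers of other types, Rtn4-202 was 36.8% of Rtn4 in radial glia-like and 26.7% in intermediate progenitor-like cells, against 37.3% and 26.9% with them.

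Isoform usage was tested by comparing the change of each transcript with that of its gene as a whole (edgeR's diffSpliceDGE on Nanopore sums). Rtn4 alone of the 4 genes could enter, since it had more than 1 transcript past the filter on low counts. These were Rtn4-202 and Rtn4-205, so the gene as a whole here means these transcripts together. Their results are therefore sides of the same comparison and not separate findings. Against radial glia-like cells, usage differed in mature glutamatergic-like cells (adjusted p = 3.5e-10, with 16.2% of 654 genes called) and in mature GABAergic-like cells (adjusted p = 4.8e-07, with 13.1% called). Relative to the gene as a whole, Rtn4-202 fell by 2.12 on the natural log scale in the first comparison (adjusted p = 4.2e-09). It fell by 2.10 in the second (adjusted p = 9.5e-06, a call lost without the 951 cell aliquot). In these comparisons 8.22% and 5.84% of single transcripts were called. Rtn4-205 had a natural log difference from the gene of 0.57 in the first (adjusted p = 0.032, lost without either aliquot and with no filter on low counts). In the second it was 0.58 (adjusted p = 0.081, or 0.021 with the aliquot as a block and 0.0499 without doublets).

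From immature to mature glutamatergic-like cells the adjusted p of Rtn4 usage was 0.11, or 0.018 with the aliquot as a block, where 1.83% of genes were called (12, or 40 with the block). Rtn4-202 had a natural log difference from the gene of -0.66 (adjusted p = 0.38, with 0.408% of single transcripts called). Between the mature GABAergic-like and mature glutamatergic-like classes the adjusted p was 0.97, with 1.38% of genes called (9, or 15 with the block) and 0.408% of single transcripts. The natural log difference there was 0.02 for Rtn4-202. The lower Rtn4 level in mature GABAergic-like cells came with no detected difference in isoform usage, on 158 Rtn4 UMIs in that class.

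As levels, the isoforms moved in opposite directions from the radial glia-like to the mature neuronal classes. Per 1000000 assigned UMIs, transcripts with both exons had 60.0 and 104 in radial glia-like, 544 and 531 in immature glutamatergic-like, 561 and 578 in mature glutamatergic-like and 326 and 346 in mature GABAergic-like cells. Transcripts with neither exon had 120 and 65.9 in radial glia-like, 45.2 and 54.4 in cycling radial glia-like and 97.6 and 72.5 in intermediate progenitor-like cells. They had 53.8 and 65.1 in immature glutamatergic-like and 31.6 and 66.8 in immature GABAergic-like cells. In mature glutamatergic-like cells they had 26.7 and 35.1, and in mature GABAergic-like cells 19.2 and 19.2, the latter on 1 and 7 UMIs. In the 190 cell aliquot the Poisson interval of Rtn4-202 in mature GABAergic-like cells was 0.485 to 107. In the 951 cell aliquot the radial glia-like and immature neuronal classes were thus alike, and both mature classes were below them. In the fit over transcript rows Rtn4-205 rose by 2.73 ± 0.22 (adjusted p = 2.4e-16) and Rtn4-202 fell by 1.16 ± 0.36 (log2 fold change -1.16, adjusted p = 0.0076) from radial glia-like to mature glutamatergic-like cells. To mature GABAergic-like cells Rtn4-205 rose by 1.86 ± 0.25 (adjusted p = 1.1e-08) and Rtn4-202 changed by -2.01 ± 0.53 (adjusted p = 0.0019), in a comparison with 35.5% of rows called. Transcripts with the 57-base exon alone had 3 and 10 UMIs in radial glia-like and 5 and 18 UMIs in mature glutamatergic-like cells.

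Between the mature glutamatergic-like clusters the share of Rtn4-202 was 20 of 500 UMIs (2.46% to 6.11%) in the Ndrg1 cluster and 6.19% (4.49 to 8.27) in the Fezf2 cluster, with overlapping intervals.

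**Figure D5:**
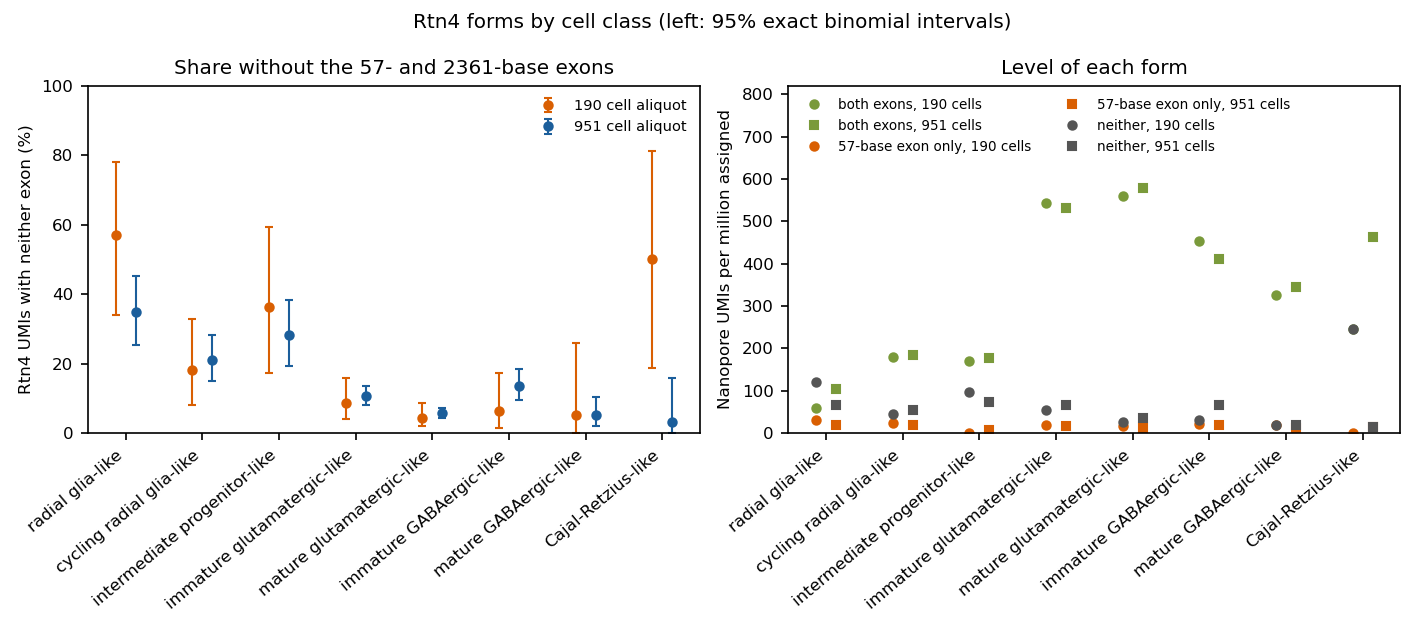
Left, percent of Rtn4 Nanopore UMIs with neither the 57-base nor the 2361-base exon in 8 cell classes, 1 point per aliquot with 95% exact binomial intervals. Right, Nanopore UMIs per 1000000 of the forms with both exons, the 57-base exon only and neither; the form with both exons is at 561 and 578 in mature glutamatergic-like cells, where the form with neither is at 26.7 and 35.1.

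Genes that work with the reticulons were followed from 5 lists. Of 14 Nogo ligands, receptors and effectors 7 passed the filter on low counts, and against radial glia-like cells 3 rose and 2 fell in mature glutamatergic-like cells, where 17.3% of all genes were called higher and 16.4% lower (median log2 fold change of the 7 -0.38, of all genes 0.01). Lingo1, a partner of the Nogo receptor, had 135 and 77.0 CPM in mature glutamatergic-like cells and 0 and 2.34 CPM in radial glia-like cells, a ratio of 44.8 (95% counting interval 12.3 to 372, with 2 UMIs in the radial glia-like class, adjusted p = 1.8e-08). Rhoa, the GTPase downstream of the receptor, fell by 1.33 on the log2 scale (log2 fold change -1.33, adjusted p = 1.0e-05). The other called genes, named after their values were seen, were Rtn4r, the Nogo receptor itself (24.0 and 15.1 against 11.1 and 2.34 CPM, adjusted p = 0.0499), Lgi1, a ligand of it (a ratio of 5.72, counting interval 1.86 to 28.6, with 3 UMIs in the radial glia-like class, adjusted p = 0.036), and Tnfrsf19, a co-receptor, which fell by 1.97 (adjusted p = 0.0077). In mature GABAergic-like cells, where 14.7% of all genes were called higher and 16.5% lower, Lgi1 rose and Tnfrsf19, Rhoa and the kinase Rock2 fell (median -0.48), and Lingo1 and Rtn4r were not called. The myelin ligands Mag and Omg had 2 and 5 UMIs in all cells.

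Of 16 genes that shape tubules of the endoplasmic reticulum, 13 were tested, of which 3 rose and 3 fell in mature glutamatergic-like against radial glia-like cells (median 0.16), near the shares of 17.3% and 16.4% over all genes. The risen ones were Reep1, a hairpin protein of the tubule (3.20, adjusted p = 2.6e-08), Atl1, the GTPase that fuses tubules (2.23, adjusted p = 4.7e-04), and Zfyve27, protrudin (1.95, adjusted p = 0.0014). Reep3 fell by 2.03 (adjusted p = 4.2e-06), beside Arl6ip1 and Tmem33. In mature GABAergic-like cells 5 rose and 3 fell (median -0.07, all genes -0.02), beside 14.7% and 16.5% of all genes. The 10 genes of endoplasmic reticulum sheets and the translocon were all tested, and none rose, while 4 fell in mature glutamatergic-like cells (median -0.41), namely Rrbp1 (-1.33), Ssr3 (-1.22), Ckap4 (-1.09) and Sec61b (-0.70), and 2 fell in mature GABAergic-like cells (median -0.42). Of all genes 16.4% and 16.5% were called lower in these comparisons.

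Among 7 receptors for the breakdown of endoplasmic reticulum, 6 were tested and 1, Calcoco1, rose in mature glutamatergic-like cells (1.52, adjusted p = 0.021, beside 17.3% of all genes called higher), while in mature GABAergic-like cells no member was called. Of 8 genes of the beta- and gamma-secretases and their substrate App, 6 were tested and none was called in mature glutamatergic-like cells, while Bace1 rose and Psenen fell in mature GABAergic-like cells, beside 14.7% and 16.5% of all genes. From immature to mature glutamatergic-like cells Lingo1 and Reep5 rose and no other gene of the 5 lists was called, beside 2.13% of all genes higher and 1.46% lower. Between the mature classes Lingo1 and Sec61b were lower in mature GABAergic-like cells and no other gene of the lists was called, beside 5.62% of all genes lower and 3.28% higher.

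Finally, the genes with the most similar pattern were sought among 1564 genes with at least 1000 Illumina UMIs, by Pearson's r over the 16 sums of class and aliquot, as a description. For Rtn1 they were Thra (0.977), Mapt (0.970), Ina (0.962), Zcchc18 (0.946) and Gm1673 (0.946). For Rtn4 they were Stmn4 (0.931), Uchl1 (0.928), Tubb2b (0.922), Dpysl3 (0.914) and Tuba1a (0.905), and for Rtn3 Ank3 (0.926), Atp6v0b (0.909), Cdkn1c (0.894), Ctxn1 (0.883) and Dynlrb1 (0.875). Among the reticulons themselves r was 0.790 between Rtn1 and Rtn4, 0.768 between Rtn1 and Rtn3 and 0.576 between Rtn3 and Rtn4. The sums share libraries and class depth.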

How the data were processed

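For Illumina, the authors ran Cell Ranger 2.0 (mm10) on either aliquot and deposited raw counts, 1 UMI count for each gene in each cell. For Nanopore, the authors aligned reads with minimap2, found barcodes and UMIs with the help of the Illumina reads, built 1 consensus per UMI, and deposited raw counts of UMIs whose exon structure matched a Gencode transcript. The paper's isoform counts hold UMIs assigned to exactly 1 transcript. A molecule cut short, of unannotated structure or not assigned to exactly 1 transcript is therefore absent from these counts. Nanopore gene counts are sums over transcript rows. Gene models and printed sequences come from Gencode vM21 (GRCm38), which the tables' transcript identifiers match in 31969 of 31986 rows without version.

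Cells with at least 1400 genes were clustered with Seurat 5.3.0 (2000 variable genes less the 1 reticulon among them, Rtn1, 11 dimensions, resolution 0.8) and named from marker lists. Scrublet in scanpy 1.11.5 marked 7 doublets, which were kept. Counts were summed per class and aliquot over 7 classes, those of 5 or more cells per aliquot, and tested with edgeR 4.0.16 (TMM, filterByExpr, glmQLFTest, diffSpliceDGE), with Benjamini-Hochberg adjustment at 0.05. DESeq2 1.42.0 was an alternative. Scripts were tested on simulated data. CPM are UMIs per 1000000 UMIs of the class, and intervals are exact at 95%. The aliquot was also fitted as a block. It marks a shared library preparation, and class sums of the same aliquot deviated together (median r of deviations 0.219, from 0.141 to 0.337 over 21 pairs, Illumina genes, and 0.0838, from 0.0208 to 0.152, Nanopore transcripts). Between the platforms the r of such deviations was 0.596.

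Transcripts with at least 1% of their gene's UMIs were named, the other rows were given by count, and list examples had the largest fold changes among called genes with at least 100 UMIs. The members and lists were chosen with earlier results of these data known. Alternatives were another scaling, no filter, DESeq2, the block and clusters made with the members. Others left out doublets, shared barcodes, cells of other types or an aliquot. In class and isoform usage tests the latter removed only the aliquot's sums of the compared classes. Leaving out shared barcodes and cells of other types was added after seeing the data. A leading gene of some clusters is not reported here.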

Additional observations from a re-analysis of the deposited data

Results flagged for a closer look

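The change of Rtn4 against radial glia-like cells differed between the mature neuronal classes, by the test of that difference itself. Its log2 fold change was 1.60 in mature glutamatergic-like and 0.82 in mature GABAergic-like cells. The difference was -0.78 (edgeR, adjusted p = 0.0036), lower in mature GABAergic-like cells in both aliquots. This is the same comparison of the mature classes as given above, and its call was lost with either aliquot left out. Median cell depth also differed between these classes, and its part was not tested. No sample could be checked for standing apart from its group, since each group has 2 aliquots.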

How the results depend on the processing

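Of 110 values of called genes of the family under alternatives, 93 stayed called in the same direction and 17 were no longer called, and none of them turned in direction. Uncalled values near 0 turned. For Rtn4, mature against immature glutamatergic-like cells, these were -0.0039 without doublets, -0.0099 without shared barcodes and -0.040 to 0.048 over the aliquots left out. With an aliquot left out, Rtn2 ran from -0.056 to 0.23 in that comparison and Rtn1 from -0.37 to 0.033 between the mature classes. Between platforms Rtn2 ran from -0.24 to 0.36 with 1 library left out. In isoform usage between the mature classes (natural log scale), Rtn4-205 was -0.015 with no filter and -0.0087 and -0.010 without the 190 and 951 cell aliquot. Rtn4-202 was there at -0.070 with clusters made with the members and at -0.052 to 0.20 with an aliquot left out. The cause was not tested. Further calls of Rtn4 and Rtn3 between platforms were lost without the Nanopore 951 cell library (0.31, adjusted p = 0.074, and 0.21, adjusted p = 0.25).

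Counts of called genes moved more. With DESeq2 they were 1645, 1526, 74 and 320 in the 4 gene comparisons in the order of the report (edgeR 2897, 2683, 308 and 765) and 3064 between platforms (edgeR 4969). The replicate block gave 954 and 1276 in the last 2 of these gene comparisons, 40 and 15 genes with a difference in isoform usage where 12 and 9 were called without it, and changed no other count by over 1.5 times. Beside the calls given in the report it changed no call of a reticulon at the gene level, between platforms or in isoform usage. The tests of levels over transcript rows were not refitted with the block or the other alternatives. How their calls depend on these settings was not tested. With no filter 187 and 1 genes differed in usage in mature glutamatergic-like cells against radial glia-like and against immature cells (106 and 12 with it). Leaving out an aliquot gave 976 to 2301, 736 to 2302, 47 to 124 and 188 to 460 called genes, and 35 to 118, 16 to 86, 0 to 2 and 0 to 5 genes with a usage difference by edgeR. The counts of 0 stood beside 28 and 31 genes at an unadjusted p under 0.05. Depth limits the values of Rtn2, of the Cajal-Retzius-like class and of the transcripts under 20 UMIs. Of 180 isoform shares under alternatives 40 left the main interval, 36 without the 951 cell and 4 without the 190 cell aliquot.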
